A study of Homo sapiens with 18 samples.

Results

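Glycolysis and hypoxia response genes are described here as a group of 35 genes, chosen by symbol from the 56609 rows of a table of read counts in chronic lymphocytic leukemia (CLL) cell lines. They comprise 4 transporters of glucose and lactate, 9 enzymes of upper glycolysis, 6 of lower glycolysis, 2 subunits of lactate dehydrogenase, 3 regulators of glycolysis and 11 genes of the hypoxia response. All 35 had at least 1 count and passed the filter used for testing, which kept the 31872 genes whose summed counts reached 10. Of the members, 32 had a mean level of at least 10 CPM and 1, ADM, of under 1 CPM. CPM stands for counts relative to the library size, here after scaling with TMM factors, and CPM values are compared only within a gene, since reads may come from the end of the transcript and gene length was not taken into account.

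The cells were HG3, MEC2 and PCL12, established EBV-positive B cell lines from patients with CLL. Each line was left unstimulated or stimulated for 4 h with 2.5 μg/ml of CpG ODN-2006, an oligonucleotide that activates Toll-like receptor 9, a sensor of DNA in endosomes. There were 3 replicates of each of the 6 groups, 18 libraries in all, and no group differed from its control in genotype or in any agent other than CpG. The lines differ in the mutation status of their IGHV genes, which are mutated in MEC2 only, and each derives from 1 patient, so a difference between lines is not one between types of CLL. Nothing in the sources says that the replicates were separately thawed or grown, so P values measure the spread between these samples, which may be technical.

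The libraries held 20382943 to 67308932 counts, so that a count of 0 allows a level of up to 0.0429 to 0.155 CPM (3 counts, counting error only). The 6 B cell markers checked summed to between 1962 and 3415 CPM in every library, and each had a mean of at least 10 CPM in each line. The 5 T cell markers summed to at most 2.64 CPM and the 5 myeloid markers to at most 8.38 CPM, with 1 gene of each list at 0 counts throughout HG3 and 1 T cell marker at 0 throughout MEC2. Libraries stood apart in 2 ways. The share of mitochondrial transcripts was 20.2% for unstimulated HG3 replicate 2 and 19.7% for the stimulated MEC2 library of replicate 2, and it ranged from 2.82% to 9.28% elsewhere. The 4 PCL12 libraries of replicates 2 and 3 showed 29.1% to 31.3% of the MEC2 level of 45 genes chosen as high in MEC2 and low in PCL12 replicate 1. The 2.26% and 2.36% of replicate 1 follow from that choice, and whether MEC2 cells or RNA were mixed into the other libraries was not tested. The part that either played in a difference between groups was not tested either, and members past the threshold between lines are given with and without these libraries. Without PCL12 replicates 2 and 3 a single unstimulated PCL12 library is left, which is assumed to vary like the other groups, so a call kept or lost there says little about PCL12.

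Glycolysis breaks glucose down to pyruvate in the cytosol and yields ATP without oxygen, and lactate dehydrogenase lets it run on by regenerating the NAD+ that the GAPDH step needs, while the lactate transporters export the lactate. When oxygen is scarce, prolyl hydroxylases stop marking the alpha subunit of hypoxia-inducible factor (HIF) for degradation. HIF then binds DNA at elements with a core of ACGTG or GCGTG and activates many glycolytic genes along with VEGFA, BNIP3, NDRG1 and the hydroxylase EGLN3. Normal and malignant B cells raise glucose uptake when they are activated, and the product of HIF1A is regulated largely at the level of protein, which transcript counts do not show.

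The promoters of the members are shown for 2 genes with the core and 2 without it, chosen because their levels carry results below. RefSeq (GRCh38.p14) listed a promoter for 30 of the 35 members. The core ACGTG was searched on both strands, where it reads CACGT on the other one, in the 250 bases before each listed start. The GCGTG form was not searched, so genes with or without the core are so named for ACGTG alone. It was present for 18 of the 30 members (60.0%), against 21.7% of the 27305 genes in the same table, and in 21 of the 58 member promoters (36.2%), against 18.5% of all 35116. A match is a string of letters and was not tested as a binding site. In the sequences that follow, written 5′ to 3′ on the strand of the gene, capitals mark the core or, where it overlaps its reverse complement, the CACGTG palindrome, and bases annotated as untranslated region were left out. The starts listed by RefSeq for SLC2A1, ANKRD37 and EGLN3 lie inside the longer genes of the GENCODE annotation, so these stretches overlap the gene positions given further on. The stretch for ALDOC is chr17:28576949-28577145 (minus strand), that for ANKRD37 chr4:185396591-185396831 (plus strand), that for SLC2A1 chr1:42958869-42959118 (minus strand) and that for EGLN3 chr14:33951082-33951324 (minus strand). ALDOC and ANKRD37 each held 2 cores in their 250 bases, of which 1 and 2 lie in the stretches shown, while SLC2A1 and EGLN3 had none in this window.
ALDOC: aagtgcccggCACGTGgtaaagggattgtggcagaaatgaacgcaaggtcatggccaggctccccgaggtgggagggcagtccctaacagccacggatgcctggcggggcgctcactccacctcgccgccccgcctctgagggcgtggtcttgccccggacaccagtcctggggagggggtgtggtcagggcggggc
ANKRD37: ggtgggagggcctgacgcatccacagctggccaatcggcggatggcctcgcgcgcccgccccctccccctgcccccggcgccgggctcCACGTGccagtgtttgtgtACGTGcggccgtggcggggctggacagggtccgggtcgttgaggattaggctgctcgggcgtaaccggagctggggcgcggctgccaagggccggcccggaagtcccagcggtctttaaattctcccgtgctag
SLC2A1: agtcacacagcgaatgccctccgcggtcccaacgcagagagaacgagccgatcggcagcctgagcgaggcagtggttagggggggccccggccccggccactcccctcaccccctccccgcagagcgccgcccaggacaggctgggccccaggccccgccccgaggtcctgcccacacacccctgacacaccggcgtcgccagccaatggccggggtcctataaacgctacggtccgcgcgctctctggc
EGLN3: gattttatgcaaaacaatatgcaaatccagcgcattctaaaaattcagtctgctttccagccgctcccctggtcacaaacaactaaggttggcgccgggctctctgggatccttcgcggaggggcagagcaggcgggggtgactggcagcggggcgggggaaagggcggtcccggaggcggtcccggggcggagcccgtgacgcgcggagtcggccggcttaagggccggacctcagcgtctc

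**Figure D1:**
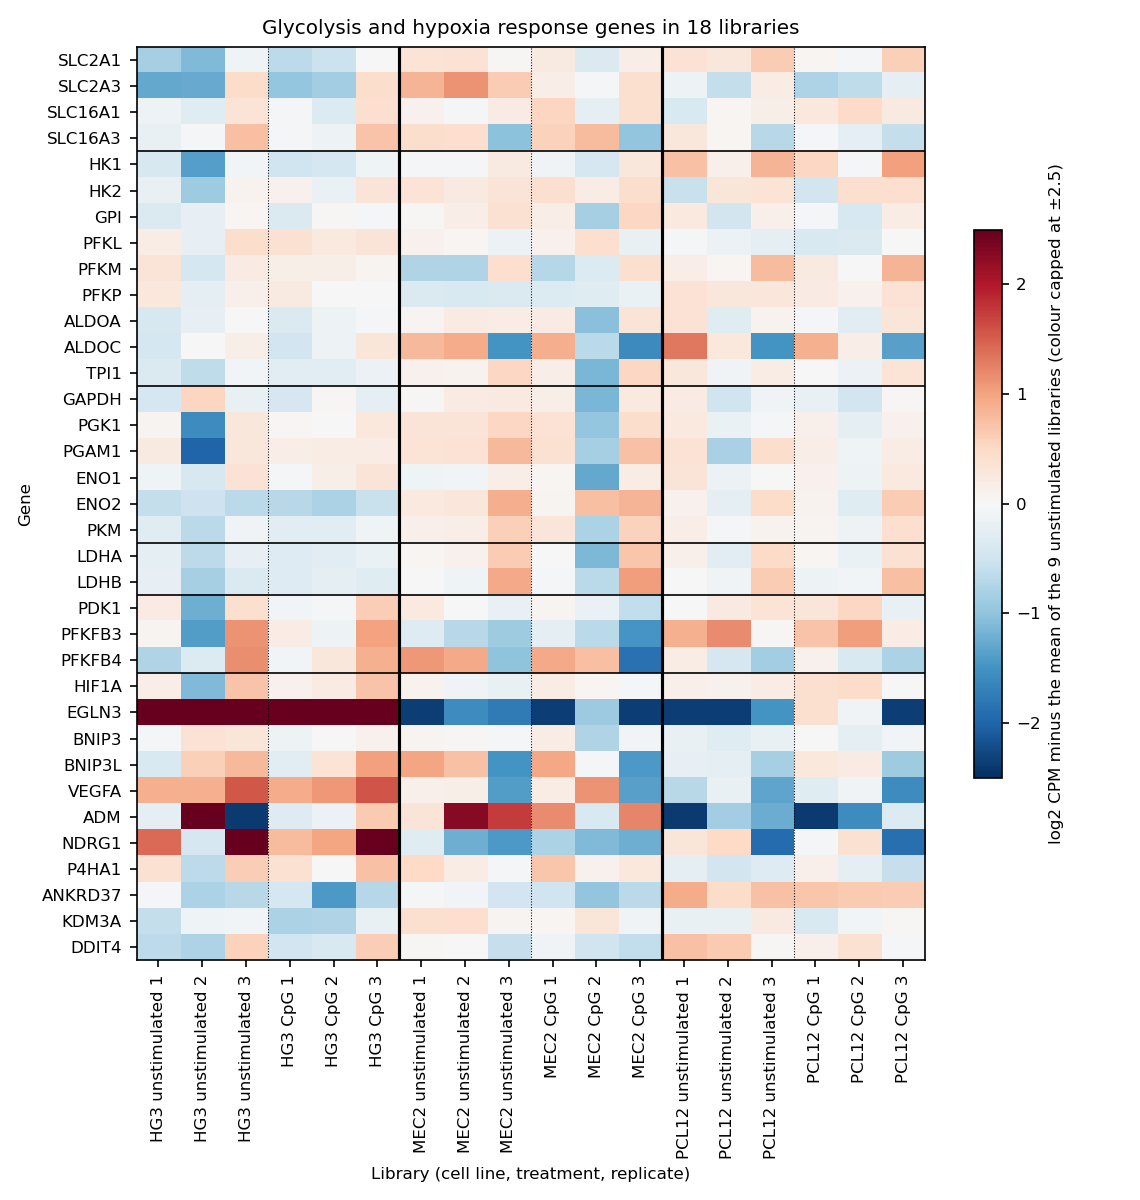
Heat map of the 35 genes (vertical axis, ordered by role, with lines between roles) in the 18 libraries (horizontal axis, by cell line, treatment and replicate). Colour gives log2 CPM minus the mean of the 9 unstimulated libraries, capped at 2.5 in either direction: EGLN3 is high in all 6 HG3 libraries, ALDOC is low in replicate 3 of MEC2 and PCL12 in both treatments, and 13 of the 17 enzymes are lower in CpG-stimulated than in unstimulated MEC2 replicate 2.

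The unstimulated libraries answer whether the lines differ in these genes before any stimulus. Against HG3, MEC2 had 3 members higher and 1 lower at an adjusted p under 0.05 (quasi-likelihood test of edgeR, P values adjusted over all tested genes by Benjamini-Hochberg). Over all genes tested, 4.81% were higher and 4.97% lower, and among those with a mean of at least 10 CPM 16.2% were called in either direction. The 4 of 35 members lie below the share of the abundant genes, to which 32 of the 35 but not EGLN3, 1 of the 4, belong. That order depends on the filter: with none, 8 of 35 members were called against 19.3% of the abundant genes. PCL12 against HG3 also gave 3 members higher and 1 lower, where 4.87% of all genes were higher, 4.57% lower, and 14.6% of the genes with at least 10 CPM were called. These 2 comparisons share the HG3 libraries. MEC2 against PCL12 gave 0 members by the same test, with 0.524% of all genes higher, 1.53% lower and 3.79% of the abundant genes called. In that comparison 5 members had an unadjusted P value under 0.05, against 11% of all genes, and DESeq2 called 3 and limma-voom 1 at an adjusted p under 0.05, against 7.71% and 4.31% of the abundant genes. The median Log2FC of the members was 0.28 for MEC2 against HG3, 0.24 for PCL12 against HG3 and 0.15 for MEC2 against PCL12. No median over all genes stands beside these values, so no shift of the list is read from them. In HG3 replicate 2 the abundant genes were also lower in the unstimulated library than in the stimulated one (median log2 ratio 0.24). The part of that unstimulated library, rich in mitochondrial counts, was not tested. All differences are per unit of RNA in the culture, and a smaller share of cells making a transcript cannot be told apart from less of it per cell.

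EGLN3 encodes the HIF prolyl hydroxylase whose own transcription is among the most responsive to HIF, and it separated HG3 from the other lines. The gene lies on the minus strand of chromosome 14 (GRCh38, 33924227 to 34462774). Unstimulated HG3 had 242, 64 and 191 counts in replicates 1, 2 and 3, which is 5.32, 3.302 and 5.025 CPM. The unstimulated MEC2 libraries had 0, 1 and 1 counts and those of PCL12 0, 0 and 2. Every HG3 library thus stood above every library of the other lines, and after CpG HG3 still had 220, 123 and 142 counts. The ratio of summed counts, per effective library size, was 228 for HG3 to MEC2 (95% exact interval 62.9 to 1890) and 247 for HG3 to PCL12 (95% exact interval 68.1 to 2047), intervals that cover counting error only. The adjusted p was 0.000105 for MEC2 and 7.74e-05 for PCL12 (edgeR), and the call was kept in each leave-one-out fit, with adjusted p values of at most 0.00182 and 0.00112, and without the libraries rich in mitochondrial counts (adjusted p of 9.72e-05 and 7.72e-05). The PCL12 library left without replicates 2 and 3 had 0 counts (adjusted p = 0.00527).

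Glucose enters through facilitative transporters, of which SLC2A1 is the widely expressed basal one and SLC2A3 one of high affinity. SLC2A1 (chromosome 1, minus strand, 42925353 to 42958893) had 33.4, 27.6 and 55.3 CPM in unstimulated HG3. It had 75.0, 76.6 and 60.4 CPM in MEC2 and 76.7, 72.6 and 92.6 CPM in PCL12. The HG3 values lay below all others, with replicate 3 of HG3 close to replicate 3 of MEC2. The level was 1.82-fold higher in MEC2 than in HG3 (Log2FC 0.86, SE 0.27, adjusted p = 0.0439) and 2.08-fold higher in PCL12 (Log2FC 1.06, SE 0.28, adjusted p = 0.0124, both from edgeR). The MEC2 call was lost without the libraries rich in mitochondrial counts (Log2FC 0.67, adjusted p = 0.1115), with mitochondrial genes removed (0.0525), without PCL12 replicates 2 and 3 (0.0749) and without any of HG3 unstimulated replicates 1 or 2, MEC2 unstimulated replicates 1 or 2 or CpG-stimulated HG3 replicate 2, up to an adjusted p of 0.139 without HG3 unstimulated replicate 2. The PCL12 call was kept without the libraries rich in mitochondrial counts (Log2FC 0.86, adjusted p = 0.0337) and lost without PCL12 replicates 2 and 3 (Log2FC 1.00, adjusted p = 0.208), where 1 unstimulated PCL12 library is left.

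SLC2A3 (chromosome 12, minus strand, 7919230 to 8019007) was the transporter with the larger difference in MEC2. It stood at 5.69, 5.83 and 19.1 CPM in unstimulated HG3, at 25.4, 30.4 and 21.8 CPM in MEC2 and at 12.9, 9.27 and 15.9 CPM in PCL12. MEC2 did not overlap with either of the other lines, while PCL12 overlapped with HG3, whose replicate 3 stood apart from its replicates 1 and 2. MEC2 was 2.53-fold higher than HG3 (Log2FC 1.34, SE 0.42, adjusted p = 0.0402 from edgeR). That call did not hold without the libraries rich in mitochondrial counts (Log2FC 1.06, adjusted p = 0.183), without PCL12 replicates 2 and 3 (0.0614) or when any 1 of the 6 libraries compared was left out, except HG3 unstimulated replicate 3, with adjusted p values of up to 0.147. The Log2FC was 0.31 (SE 0.41) for PCL12 against HG3 and 1.03 (SE 0.41, adjusted p = 0.312) for MEC2 against PCL12. The lactate transporters SLC16A1 and SLC16A3, of which the latter is the form of cells that export much lactate, did not pass the test between any lines. In unstimulated cells SLC16A1 had 119.9 ± 28.6, 129 ± 11.2 and 117 ± 21.9 CPM in HG3, MEC2 and PCL12 (SD, n = 3 each), and SLC16A3 had 55.4 ± 20.9, 50.1 ± 23.2 and 45.3 ± 14.6 CPM.

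Among the 9 enzymes of upper glycolysis, 1 passed the test. Hexokinases trap glucose by phosphorylation, and HK1, the ubiquitous one, was higher in PCL12. HK1 (chromosome 10, plus strand, 69269984 to 69401884) had 55.0, 28.1 and 69.3 CPM in unstimulated HG3, 71.0, 71.1 and 85.9 CPM in MEC2 and 121.7, 80.04 and 131.9 CPM in PCL12. HG3 did not overlap with either line, and replicate 2 was the lowest library of HG3 and of PCL12. PCL12 was 2.19-fold higher than HG3 (Log2FC 1.13, SE 0.30, adjusted p = 0.0156 from edgeR), and MEC2 had a Log2FC of 0.58 (SE 0.30, adjusted p = 0.26). The PCL12 call was lost without HG3 unstimulated replicate 2, rich in mitochondrial counts (Log2FC 0.87, adjusted p = 0.06197), without PCL12 unstimulated replicate 3 (adjusted p = 0.0597), without both libraries rich in mitochondrial counts (adjusted p = 0.0504) and without PCL12 replicates 2 and 3 (Log2FC 1.28, adjusted p = 0.0734). HK2, the hexokinase that HIF and growth signals induce, had 98.6 ± 31.9 CPM in HG3, 147 ± 5.999 in MEC2 and 126 ± 38.9 in PCL12 (SD, n = 3 each) and passed in none of the comparisons. In PCL12 its replicate 1 stood at 81.4 CPM and replicates 2 and 3 at 147 and 150.5 CPM.

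Phosphofructokinase commits the sugar to glycolysis and is built from the subunits PFKL, PFKM and PFKP. PFKP, the platelet type, had 166, 117 and 151 CPM in unstimulated HG3, 107, 106 and 107 CPM in MEC2 and 178, 166.5 and 168 CPM in PCL12. The MEC2 libraries were the lowest and lay close together. For MEC2 against PCL12 the Log2FC was -0.68 (SE 0.21, adjusted p = 0.107 from edgeR), and DESeq2 (adjusted p = 0.00191) and limma-voom (adjusted p = 0.0325) called it. PFKM, the muscle type, had 61.9 ± 31.7 CPM in MEC2, 77.3 ± 19.8 in HG3 and 95.8 ± 27.9 in PCL12, and PFKL, the liver type, 217 ± 18.9, 241 ± 52.6 and 196 ± 12 CPM in the same order (SD, n = 3 each). Neither passed the test between any lines. Aldolase splits the phosphorylated sugar, and ALDOA and ALDOC had Log2FC values of 0.35 (SE 0.28) and 0.50 (SE 0.81) for MEC2 against HG3. The large error of ALDOC comes from replicates that differed several-fold, which are described further on. GPI and TPI1, the isomerases of the pathway, had Log2FC values of 0.37 and 0.59 in MEC2 and 0.17 and 0.48 in PCL12 against HG3, with adjusted p values of 0.24 or more.

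In lower glycolysis 1 of 6 enzymes passed. ENO2 encodes gamma enolase, known from neurons, and was higher in MEC2. Its gene (chromosome 12, plus strand, 6913745 to 6923698) had 52.3, 54.6 and 49.6 CPM in unstimulated HG3, 92.9, 95.8 and 148 CPM in MEC2 and 84.8, 66.5 and 108 CPM in PCL12. HG3 replicates lay within a few CPM of each other and below every library of the other lines. MEC2 was 2.15-fold higher than HG3 (Log2FC 1.11, SE 0.27, adjusted p = 0.0075 from edgeR), a call lost only without MEC2 unstimulated replicate 3 (Log2FC 0.85, adjusted p = 0.0722) among all alternatives run, with an adjusted p of 0.0117 without the libraries rich in mitochondrial counts and of 0.0101 without PCL12 replicates 2 and 3. PCL12 had a Log2FC of 0.73 (SE 0.27) and did not pass (adjusted p = 0.0953). ENO1, the enolase of most tissues, had 2153 ± 585, 2169 ± 238 and 2283 ± 391.7 CPM in HG3, MEC2 and PCL12 (SD, n = 3 each). GAPDH, PGK1, PGAM1 and PKM, which carry the pathway from the triose phosphates to pyruvate, had Log2FC values of 0.12, 0.59, 0.72 and 0.65 for MEC2 against HG3 and did not pass. Unstimulated HG3 replicate 2, the library rich in mitochondrial counts, stood apart in several of them. There PGAM1 had 21.5 CPM against 99.97 and 104 CPM in the other HG3 replicates, PGK1 191 CPM against 598 and 693, and GAPDH 7283 CPM against 3780 and 4435.

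Lactate dehydrogenase converts pyruvate to lactate and back, LDHA being the subunit favoured in lactate-producing cells and LDHB the one of aerobic tissues. LDHA had 733 ± 122.5 CPM in unstimulated HG3, 1140 ± 271 in MEC2 and 1025 ± 268 in PCL12, and LDHB 457 ± 96.2, 803 ± 348.5 and 724 ± 213 CPM (SD, n = 3 each). The Log2FC of LDHB was 0.81 (SE 0.36, adjusted p = 0.179) for MEC2 against HG3, and neither subunit passed between any lines. Of the regulators, PDK1 keeps pyruvate out of the mitochondrion, and PFKFB3 and PFKFB4 make and remove the activator of phosphofructokinase. PDK1 had 20.9 ± 10.3, 22 ± 3.29 and 24.8 ± 2.78 CPM in HG3, MEC2 and PCL12. PFKFB3 had 37.6, 13.5 and 77.6 CPM in HG3, 28.7, 22.1 and 19.4 CPM in MEC2 and 66.01, 80.8 and 36.6 CPM in PCL12, so that MEC2 lay below PCL12 and inside the wide range of HG3. Its Log2FC for MEC2 against PCL12 was -1.39 (SE 0.49, adjusted p = 0.23), and DESeq2 gave an adjusted p of 0.0405. PFKFB4 had 5.45, 7.27 and 20.6 CPM in HG3, 19.7, 17.8 and 4.59 CPM in MEC2 and 10.6, 6.85 and 5.06 CPM in PCL12, groups that overlapped throughout.

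**Figure D2:**
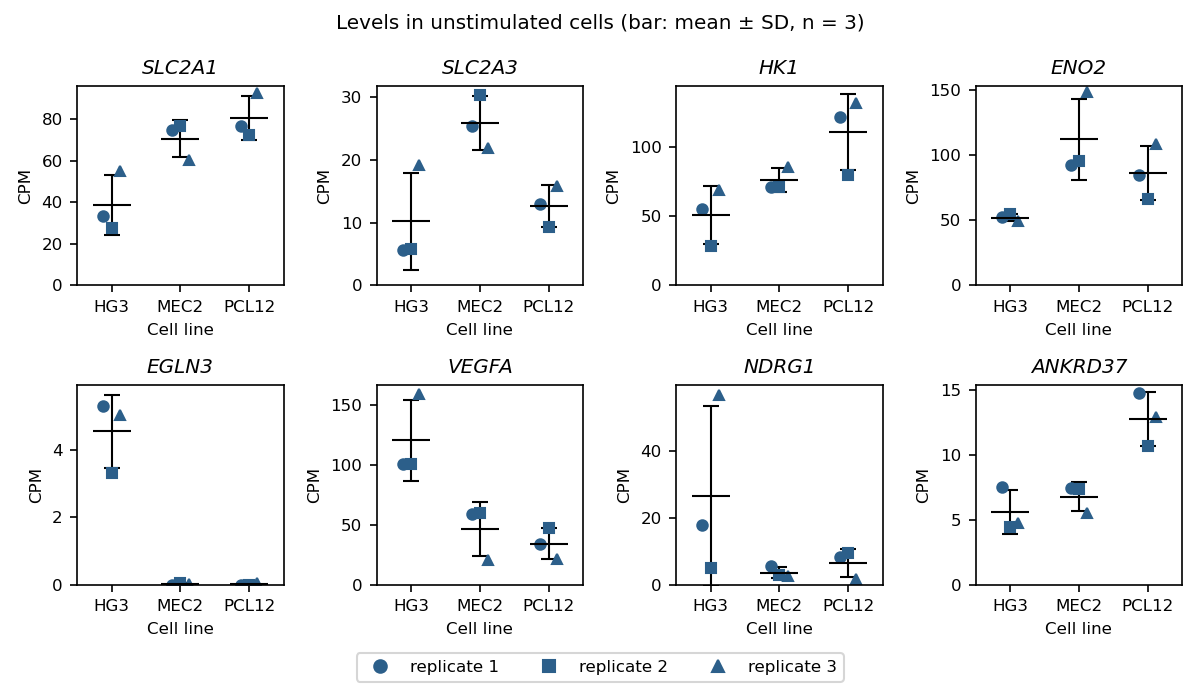
CPM (vertical axis, from 0) of 8 genes in unstimulated HG3, MEC2 and PCL12 (horizontal axis). Each symbol is 1 library, with the shape giving the replicate, and bars are mean ± SD (n = 3, cut at 0 for NDRG1): SLC2A1, HK1 and ENO2 are lowest in HG3, EGLN3 is found in HG3 alone above 1 CPM, and ANKRD37 is highest in PCL12.

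The hypoxia response genes other than EGLN3 did not move in 1 direction between the lines. ANKRD37, a small ankyrin repeat protein induced by HIF, was higher in PCL12. It lies on chromosome 4 (plus strand, 185396021 to 185400628) and had 7.54, 4.44 and 4.74 CPM in unstimulated HG3, 7.45, 7.35 and 5.53 CPM in MEC2 and 14.7, 10.6 and 12.9 CPM in PCL12. The PCL12 libraries lay above all others and those of HG3 and MEC2 overlapped. PCL12 was 2.28-fold higher than HG3 (Log2FC 1.19, SE 0.36, adjusted p = 0.0342 from edgeR). The adjusted p was 0.122 without PCL12 unstimulated replicate 1, 0.119 without HG3 unstimulated replicate 3, 0.0812 without HG3 unstimulated replicate 2, 0.0792 without PCL12 unstimulated replicate 3, 0.0654 without the libraries rich in mitochondrial counts and 0.21 without PCL12 replicates 2 and 3, where the Log2FC was 1.42. For MEC2 against PCL12 the Log2FC was -0.91 (SE 0.36, adjusted p = 0.288), and DESeq2 gave an adjusted p of 0.0468.

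VEGFA, the growth factor of blood vessels and a classic HIF target, and NDRG1, a stress-induced protein, had their highest unstimulated levels in HG3. VEGFA (chromosome 6, plus strand, 43770184 to 43786487) stood at 100.5, 101 and 159 CPM in HG3, 58.9, 59.8 and 20.5 CPM in MEC2 and 33.4, 47.3 and 21.6 CPM in PCL12. No library of MEC2 or PCL12 reached any of HG3. The Log2FC was -1.37 (SE 0.55, adjusted p = 0.154) in MEC2 and -1.82 (SE 0.56, adjusted p = 0.0539) in PCL12 against HG3 in edgeR, and DESeq2 (adjusted p of 0.0283 and 0.00226) and limma-voom (0.0388 and 0.0109) called both. With the replicate number as a block shared by the lines, PCL12 also passed in edgeR (adjusted p = 0.028), as it did with mitochondrial genes removed, with each other filter and in some leave-one-out fits. NDRG1 had 18, 5.004 and 57.0 CPM in HG3, 5.47, 2.86 and 2.45 CPM in MEC2 and 8.30, 9.48 and 1.74 CPM in PCL12, with HG3 spanning a wide range that overlapped with both. Its Log2FC for MEC2 against HG3 was -2.89 (SE 0.91, adjusted p = 0.0645 from edgeR), and the call was made by DESeq2 (adjusted p = 0.00574), with each other filter, without HG3 unstimulated replicate 2 (adjusted p = 0.025), without PCL12 replicates 2 and 3 (adjusted p = 0.0485) and without both libraries rich in mitochondrial counts (Log2FC -3.38, adjusted p = 0.0403).

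HIF1A itself, the oxygen-regulated subunit of HIF, had 118.5, 49.6 and 175 CPM in HG3, 112.6, 100 and 93.7 CPM in MEC2 and 116, 114 and 120.4 CPM in PCL12. The HG3 replicates spanned the range of the others, and Log2FC values against HG3 were -0.17 in MEC2 and 0.032 in PCL12 (SE 0.30 each). BNIP3 and BNIP3L, receptors that mark mitochondria for removal, did not pass either. BNIP3 had 25.8 ± 3.63, 22.5 ± 0.909 and 18.9 ± 0.910 CPM and BNIP3L 48.3 ± 18.4, 47.7 ± 30.8 and 27.2 ± 6.11 CPM in HG3, MEC2 and PCL12 (SD, n = 3 each). P4HA1, a collagen prolyl hydroxylase, KDM3A, a histone demethylase, and DDIT4, an inhibitor of growth signalling, did not pass between any lines either. DDIT4 had 85.3, 78.2 and 199 CPM in HG3, 137, 133 and 89.8 CPM in MEC2 and 222, 212 and 138 CPM in PCL12, where MEC2 lay below every PCL12 library (Log2FC -0.67, SE 0.33, adjusted p = 0.461). ADM, the vasodilator peptide adrenomedullin, had 0 to 38 counts per library, and with 78 counts in unstimulated MEC2 and 6 in unstimulated PCL12 its ratio was 14.1 (95% exact interval 6.19 to 39.5, counting error only), with an adjusted p of 0.306.

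The CpG comparison asks whether TLR9 stimulation moved these genes within 4 h. No member passed an adjusted p of 0.05 in any line with the edgeR test. Of all genes tested, 0.00314% passed for HG3, 0.00314% for MEC2 and 0% for PCL12. At an unadjusted P value under 0.05 the members called numbered 0, 0 and 1 in HG3, MEC2 and PCL12, while 3.73%, 2.46% and 2.09% of all genes were called. DESeq2 gave 0, 0 and 1 members at that threshold and limma-voom 0, 0 and 0. In the edgeR test, which is not the one the study used for its DEGs, no member met the thresholds of the study, a P value under 0.01 with |Log2FC| ≥ 1, which 0.496%, 0.251% and 0.116% of all genes met in the same order of lines. The largest |Log2FC| among members with at least 10 CPM belonged to PGAM1 in HG3 (0.37, 95% interval -0.59 to 1.33) and to SLC2A3 in MEC2 (-0.70, 95% interval -1.54 to 0.15) and PCL12 (-0.40, 95% interval -1.25 to 0.45). Intervals were wide where replicates differed, as for ALDOC in MEC2 (-2.25 to 1.26), and where counts were few, as for EGLN3 in PCL12. They do not exclude changes of that size.

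EGLN3 was the member with a nominal P value under 0.05 in PCL12. Its counts were 23, 5 and 0 in CpG-stimulated replicates 1, 2 and 3 against 0, 0 and 2 without CpG. The first pair of libraries held most of the difference, and replicate 3 went the other way. The ratio of summed counts was 10.8 (95% exact interval 2.73 to 93.8, counting error only), the fitted Log2FC 3.10 (SE 1.19, P = 0.0151, adjusted p = 1 from edgeR), with overlapping groups (two-sided exact permutation test, p = 0.4). Without CpG-stimulated PCL12 replicate 1 the P value was 0.1325 and without unstimulated PCL12 replicate 1 0.05095. With 0.329 CPM, the highest PCL12 level was still below the lowest HG3 level of 3.302 CPM.

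Because each replicate number held 1 stimulated and 1 unstimulated sample by the description of the series, the change was also read pair by pair. In MEC2 the data did not show the pairing of numbers 1 and 2, whose libraries were more alike across numbers than within them. For HG3 the median log2 ratio of the 35 members was 0.00042, 0.38 and -0.019 in pairs 1, 2 and 3, where the medians of all abundant genes, those reaching 10 CPM on average, were -0.05003, 0.24 and -0.024. In MEC2 it was 0.041, -0.49 and -0.010, against -0.042, -0.0017 and -0.010 for those genes. In PCL12 it was -0.16, 0.019 and 0.077, against 0.0014, 0.034 and -0.067. The only pairs with a median beyond 0.2 in either direction were pair 2 of HG3 and pair 2 of MEC2, and each contains the library rich in mitochondrial counts, the unstimulated one in HG3 and the stimulated one in MEC2. Over pairs, the median of a line was 0.00042 (SD 0.23) for HG3, -0.010 (SD 0.29) for MEC2 and 0.019 (SD 0.12) for PCL12, with 3 pairs each and every median smaller than its SD.

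**Figure D3:**
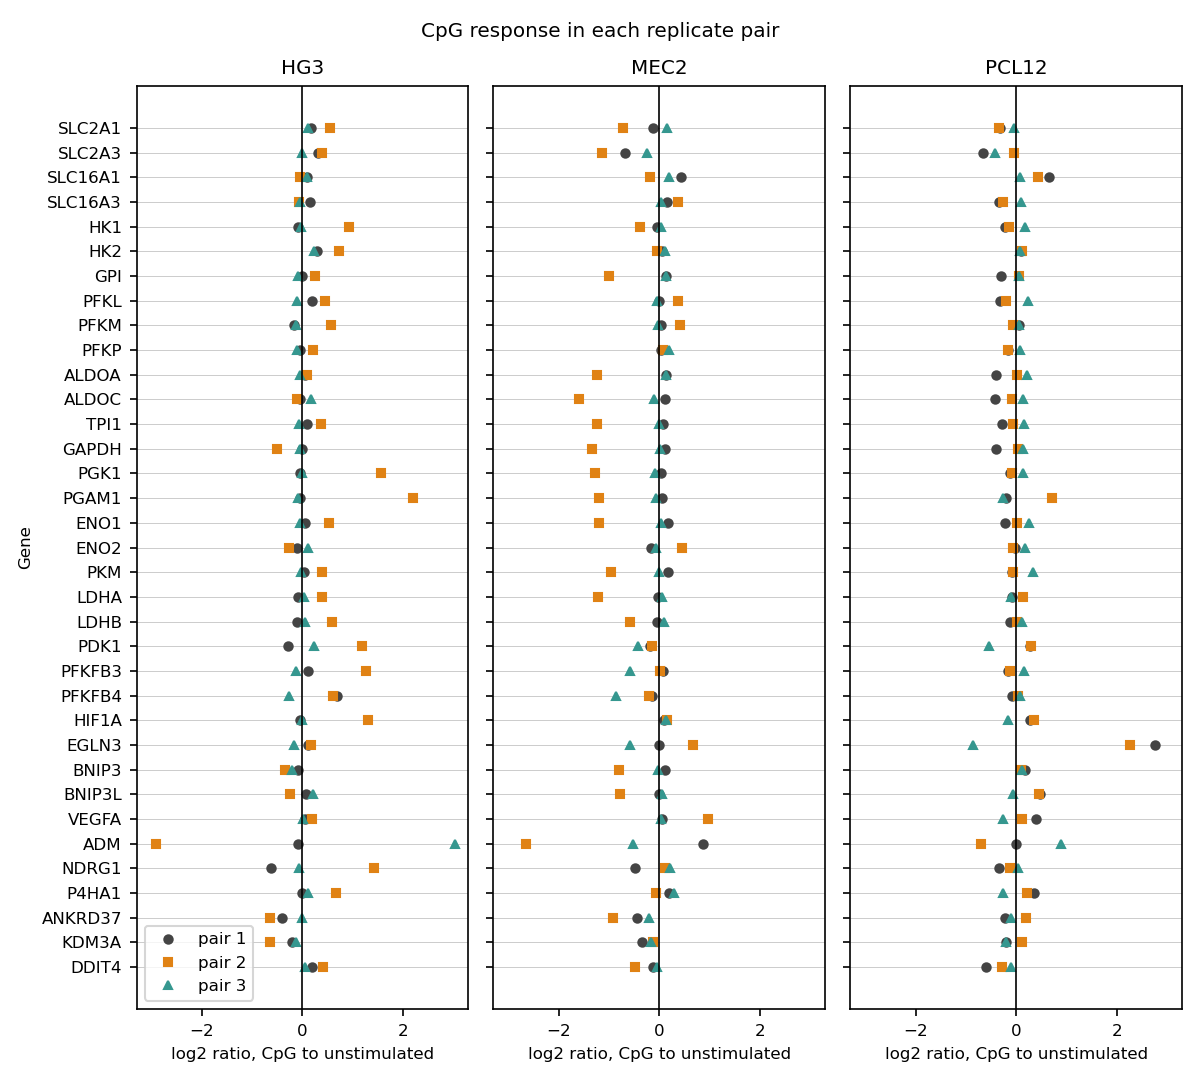
Log2 ratio of CPM, CpG-stimulated to unstimulated (horizontal axis), of each gene (vertical axis) in the 3 replicate pairs of each line, with 1 panel per line and 1 symbol per pair. In HG3 and MEC2, pairs 1 and 3 lie near 0 for most genes, while pair 2 lies to the right of 0 for 25 of 35 genes in HG3, up to 2.19 for PGAM1, and to the left for 13 of the 17 glycolytic enzymes in MEC2.

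In MEC2 pair 2 the enzymes stood lower than the hypoxia response genes. The median over the 17 enzymes, lactate dehydrogenase included, was -0.038, 0.38 and -0.048 over the HG3 pairs, 0.047, -1.01 and 0.0093 over those of MEC2 and -0.20, -0.055 and 0.14 over those of PCL12. The 11 hypoxia response genes had medians of -0.052, 0.17 and -0.0033, of 0, -0.12 and -0.020 and of 0.17, 0.11 and -0.11. In MEC2 pair 2, 13 of the 17 were lower in the stimulated library, among them GAPDH with 2287 against 5801 CPM, ENO1 with 893 against 2062 CPM and LDHA with 431 against 1005 CPM. ENO2 went the other way in that pair with 132 against 95.8 CPM, as did PFKL with 289 against 223 CPM. The members together took 0.756% of the counts in this stimulated MEC2 library and 1.58% to 1.95% in the other MEC2 libraries. In pairs 1 and 3 of MEC2 the same genes stood at nearly equal levels, GAPDH at 5544 and 5155 CPM in pair 1 and at 5954 and 5915 CPM in pair 3 with and without CpG. In HG3 pair 2 the unstimulated library was the one apart, with PGAM1 at 21.5 CPM against 98.3 CPM after CpG and PGK1 at 191 against 566 CPM.

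No member had a log2 ratio of 1 sign in all 9 pairs, which 0.511% of all genes and 1.3% of the abundant genes had. At such shares the 0 says nothing particular to the members. Within a line, 9, 10 and 6 members had 1 sign in all 3 pairs of HG3, MEC2 and PCL12, as did 17.7%, 25.8% and 19.6% of the abundant genes. SLC2A3 was lower after CpG in all 6 pairs of MEC2 and PCL12. In MEC2 it had 15.7, 13.7 and 18.5 CPM after CpG against 25.4, 30.4 and 21.8 CPM without it, groups that did not overlap (Log2FC -0.70, SE 0.41, edgeR P = 0.103, and p = 0.1 in a two-sided exact permutation test, its lower limit for 3 against 3). In PCL12 it had 8.14, 8.93 and 11.8 CPM against 12.9, 9.27 and 15.9 CPM (Log2FC -0.40, SE 0.41), groups that overlapped. In HG3 the ratios were 0.32, 0.39 and -0.0035. SLC2A1 had the next lowest median ratio in PCL12, with -0.33, -0.33 and -0.042 in its pairs, and 0.17, 0.56 and 0.11 in HG3.

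Among the 34 members averaging 1 CPM or more, ANKRD37 had the lowest median ratio in HG3 and the second lowest in MEC2. It had 5.70, 2.81 and 4.70 CPM in stimulated and 7.54, 4.44 and 4.74 CPM in unstimulated HG3, and 5.47, 3.87 and 4.79 CPM against 7.45, 7.35 and 5.53 CPM in MEC2. The MEC2 groups did not overlap and those of HG3 did (Log2FC -0.53, SE 0.36 in MEC2 and -0.34, SE 0.36 in HG3). KDM3A had the second lowest median ratio in HG3, with 23.2, 24.01 and 35.3 CPM after CpG against 26.8, 37.5 and 38.6 CPM. The highest median ratios were those of PFKFB4 (0.62) and SLC2A3 (0.32) in HG3, P4HA1 (0.20) and SLC16A1 (0.19) in MEC2, and BNIP3L (0.45) and SLC16A1 (0.43) in PCL12. EGLN3 ranked above these in PCL12 on the few counts given above, and it reached an average of 1 CPM through HG3 alone. For PFKFB4 in HG3 the pairs gave 0.69, 0.62 and -0.27, and for BNIP3L in PCL12 0.46, 0.45 and -0.072. SLC16A1 stood in PCL12 at 146, 169 and 141.5 CPM after CpG and at 92.4, 125 and 134 CPM without it, which did not overlap (Log2FC 0.38, SE 0.25, adjusted p = 1 from edgeR). HIF1A, as 1 further example, had ratios of 0.097, 0.15 and 0.13 in MEC2, -0.052, 1.30 and -0.0033 in HG3 and 0.28, 0.35 and -0.17 in PCL12.

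With the replicate number as a block within each line, edgeR gave 3, 3 and 1 members at P under 0.05 in the lines HG3, MEC2 and PCL12, where 3.59%, 3.41% and 1.69% of all genes were called, and 0 past an adjusted p of 0.05. In HG3 edgeR with the block gave P values of 0.0421 for HK2, 0.0238 for PGK1 and 0.0033 for PGAM1, with block Log2FC values of 0.42, 0.49 and 0.64. Without the libraries rich in mitochondrial counts, and without the block, the Log2FC was 0.14 for HK2, -0.079 for PGK1 and -0.066 for PGAM1. In MEC2 edgeR with the block gave P values of 0.0107 for SLC2A3, 0.0137 for ALDOC and 0.0413 for PGK1, with block Log2FC values of -0.69, -0.52 and -0.44. Without the mitochondria-rich libraries these stood at -0.60 for SLC2A3, -0.27 for ALDOC and 0.0057 for PGK1. In PCL12 the member was again EGLN3 (Log2FC 2.57 with the block).

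The difference of the CpG changes between lines was tested as an interaction. None of the members passed an adjusted p of 0.05 with edgeR, DESeq2 or limma-voom. At an unadjusted P under 0.05 there were 0 members for MEC2 against HG3, 1 for PCL12 against HG3 and 0 for MEC2 against PCL12, and 4.1%, 4.16% and 3.23% of all genes. The 1 was EGLN3 (edgeR, difference of Log2FC 3.07, SE 1.45, adjusted p = 1), on the counts given above.

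The libraries of a line were also compared by replicate number. This comparison was added after the data had been seen, and it asks whether the stimulated and the unstimulated library of 1 number share a level that differs from the other numbers of that line (quasi-likelihood test of the replicate terms in edgeR, with 6 residual degrees of freedom). The members with an adjusted p under 0.05 numbered 13 for HG3, 10 for MEC2 and 6 for PCL12. Over all genes tested the shares were 8.77%, 5.59% and 3.62%, and among the abundant genes, to which 32 of the 35 members belong, 23.3%, 14.7% and 8.73%. Limma-voom called 8, 10 and 5 members and 9.63%, 5.13% and 4.92% of the abundant genes. The mean log2 CPM of the 3 numbers spanned a median of 0.71, 0.73 and 0.59 over the members of the list, by line, against 0.56, 0.47 and 0.41 over all abundant genes. The median absolute CpG difference of the members was 0.18, 0.23 and 0.080, on the same scale. A span of 3 means of 2 libraries tends by construction to be larger than a difference of 2 means of 3. It was larger than the CpG difference for 34, 31 and 33 of the 35 members, and for 95.2%, 88.3% and 91.7% of the abundant genes, so the counts say nothing particular to the members. The counts of members called depended on single libraries: they ran from 4, without HG3 unstimulated replicate 3, to 19, without MEC2 unstimulated replicate 2, in HG3, from 6, without CpG-stimulated MEC2 replicate 3, to 18, without HG3 or MEC2 unstimulated replicate 2, in MEC2, and from 2, without CpG-stimulated PCL12 replicate 3, to 12 in PCL12. Without both libraries rich in mitochondrial counts they were 16, 14 and 23, where 24.35%, 29.25% and 35.1% of the abundant genes were called.

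**Figure D4:**
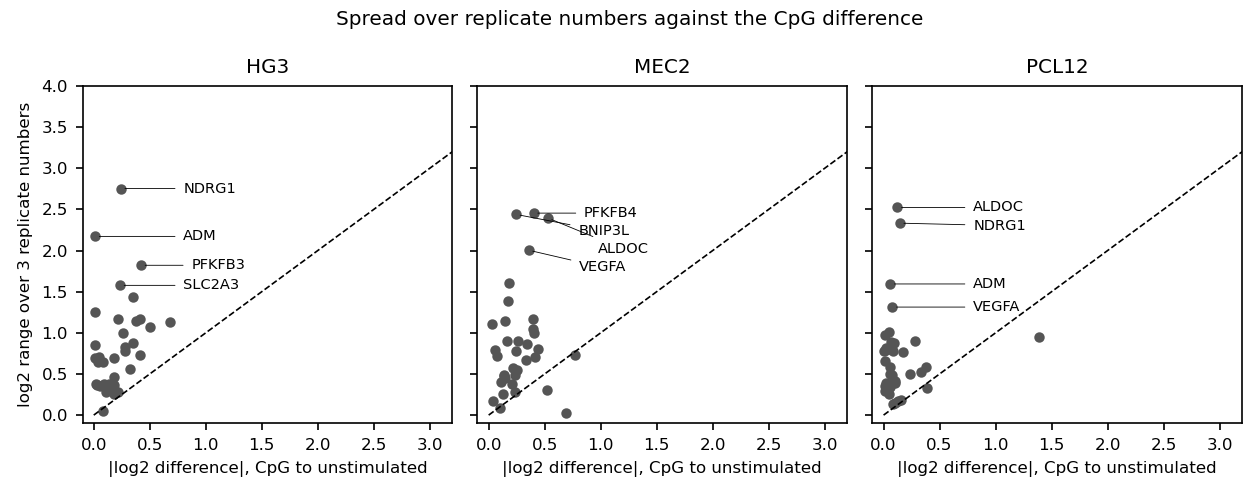
Span of the mean log2 CPM over the 3 replicate numbers (vertical axis) against the absolute log2 difference of CpG-stimulated and unstimulated libraries (horizontal axis), 1 point per gene and 1 panel per line. Points above the dashed line of equality number 34, 31 and 33 of 35 by line, a share near that of all abundant genes, and the 4 genes with the widest span are named.

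ALDOC, the aldolase of brain and a HIF-responsive gene (chromosome 17, minus strand, 28573115 to 28576948), had the smallest P value of all members in MEC2 and in PCL12. Unstimulated MEC2 stood at 184, 199.9 and 37.5 CPM in replicates 1, 2 and 3 and stimulated MEC2 at 198, 66.3 and 34.98 CPM. Unstimulated PCL12 stood at 262, 126 and 37.4 CPM and stimulated PCL12 at 195, 118 and 41.3 CPM. Replicate 3 was thus the lowest in both lines and both treatments, and HG3 had 77.3, 104 and 116 CPM without and 75.2, 97.1 and 130 CPM with CpG. The PCL12 libraries of replicate 3 also carried 29.05% (CpG) and 31.3% (unstimulated) of the level of the genes high in MEC2. After removal of group means, unstimulated replicate 3 of MEC2 and PCL12 correlated at 0.39. The lines may therefore not be independent here. Its part in this and in BNIP3L, VEGFA, LDHB and PFKM below was not tested. The adjusted p was 6.46e-16 for MEC2 and 5.72e-18 for PCL12 (edgeR), or 0.00385 and 0.0006 with limma-voom. In edgeR it stayed under 0.05 whichever library was left out. ALDOA, the aldolase of most cells, did not pass in any line and stood in replicate 3 at 1034 and 1128 CPM in MEC2 without and with CpG.

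BNIP3L and VEGFA were also lowest in replicate 3 of MEC2. BNIP3L stood there at 71.0, 59.3 and 12.7 CPM without CpG and at 70.3, 34.5 and 13.2 CPM with it (adjusted p = 3.1e-14). VEGFA stood at 58.9, 59.8 and 20.5 CPM and at 61.3, 117 and 21.2 CPM (adjusted p = 5.6e-11). Both calls held whichever library was left out. In PCL12, VEGFA had 21.6 and 18.1 CPM in replicate 3 against 33.4 to 51.1 CPM in the other libraries (adjusted p = 0.000156, and 0.153 without CpG-stimulated PCL12 replicate 3). BNIP3L had 20.2 and 19.2 CPM there against 30.2 to 43.1 CPM (adjusted p = 0.0419, and lost in 11 of 18 leave-one-out fits). Limma-voom did not call BNIP3L in PCL12 (adjusted p = 0.131). In HG3, by contrast, replicate 3 was the highest for BNIP3L with 63.0 and 72.8 CPM against 27.7 and 29.3 CPM in replicate 1 (adjusted p = 0.00064, and 0.0746 without HG3 unstimulated replicate 1). VEGFA did not pass in HG3, where replicate 3 had 159 and 161 CPM and the others 100.5 to 115 CPM.

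SLC16A3 and PFKFB4 were also low in replicate 3 of MEC2. SLC16A3 stood at 23.3 and 23.8 CPM there against 63.4 to 81.5 CPM (adjusted p = 2.21e-07), and PFKFB4 at 4.59 and 2.49 CPM against 15.5 to 19.7 CPM (adjusted p = 2.23e-07), both under 0.05 in each leave-one-out fit. LDHB, PFKM and LDHA were high in the same replicate. LDHB had 1205 and 1279 CPM against 388 to 627 CPM (adjusted p = 1.47e-05), PFKM 98.6 and 96.9 CPM against 43.5 to 58.2 CPM (adjusted p = 0.00026) and LDHA 1452 and 1507 CPM against 431 to 1005 CPM (adjusted p = 0.00395). These 3 calls were each lost when a replicate 3 library of MEC2 was left out, with adjusted p values of 0.157, 0.218 and 0.668. TPI1 and PGAM1 completed the 10 members called in MEC2, with adjusted p values of 0.01995 and 0.0206. TPI1 lost its call in 7 and PGAM1 in 3 of 18 leave-one-out fits, with adjusted p values of up to 0.546 and 0.585, and limma-voom did not call PGAM1 (adjusted p = 0.368).

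In PCL12, LDHB and PFKM were also highest in replicate 3 without passing, LDHB with 969 and 1050 CPM in replicate 3 against 571 to 621 CPM (adjusted p = 0.052) and PFKM with 128 and 133 CPM against 73.5 to 86.2 CPM (adjusted p = 0.0721), though limma-voom called LDHB (adjusted p = 0.00823). The other PCL12 members that passed were NDRG1, PFKFB3 and HK2. NDRG1 had 1.74 and 1.78 CPM in replicate 3 against 6.54 to 9.48 CPM (adjusted p = 2.53e-07). PFKFB3 had 36.6 and 40.5 CPM there against 58.8 to 80.8 CPM (adjusted p = 0.0234). HK2 differed in replicate 1, with 81.4 and 86.8 CPM against 147 to 159 CPM (adjusted p = 0.0187). The libraries of PCL12 replicates 2 and 3 are also those with 29.1% to 31.3% of the level of the genes high in MEC2, whose unstimulated HK2 level was 147 CPM, and the part of this in the HK2 call was not tested. PFKFB3 lost its call in 4 and HK2 in 6 of 18 leave-one-out fits. Limma-voom gave adjusted p values of 0.0471 for NDRG1 and 0.0117 for HK2, and it did not call PFKFB3 (adjusted p = 0.0876).

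In HG3, all 13 members that passed had their highest mean log2 CPM in replicate 3. The calls of PGAM1, PGK1, PDK1 and P4HA1 were lost without the libraries rich in mitochondrial counts, with adjusted p values of 1, 0.401, 0.215 and 0.0702, and before that stood at 0.00697, 0.0122, 0.0224 and 0.0148. Limma-voom did not call these genes either (adjusted p of 0.337, 0.155, 0.171 and 0.0661). NDRG1 had 57.0 and 54.5 CPM in replicate 3 against 5.004 to 18 CPM in the other HG3 libraries (adjusted p = 3.96e-11). PFKFB3 had 77.6 and 71.5 CPM against 13.5 to 40.6 CPM (adjusted p = 8.4e-08). Both stayed under 0.05 in each leave-one-out fit. SLC2A3 had 19.1 and 19.1 CPM against 5.69 to 7.65 CPM and DDIT4 199 and 207 CPM against 78.2 to 104 CPM (adjusted p = 1.34e-05 each), calls lost without HG3 unstimulated replicate 3 (0.0764 and 0.0751). HIF1A had 175 and 175 CPM in replicate 3 against 49.6 to 123 CPM (adjusted p = 0.002, and 0.245 without HG3 unstimulated replicate 3). PFKFB4, SLC16A3 and SLC2A1 also passed, with adjusted p values of 0.00422, 0.0117 and 0.0369, and lost their calls in 2, 3 and 15 of 18 leave-one-out fits. For SLC2A1 the adjusted p reached 0.759, and limma-voom did not call it (adjusted p = 0.128).

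**Figure D5:**
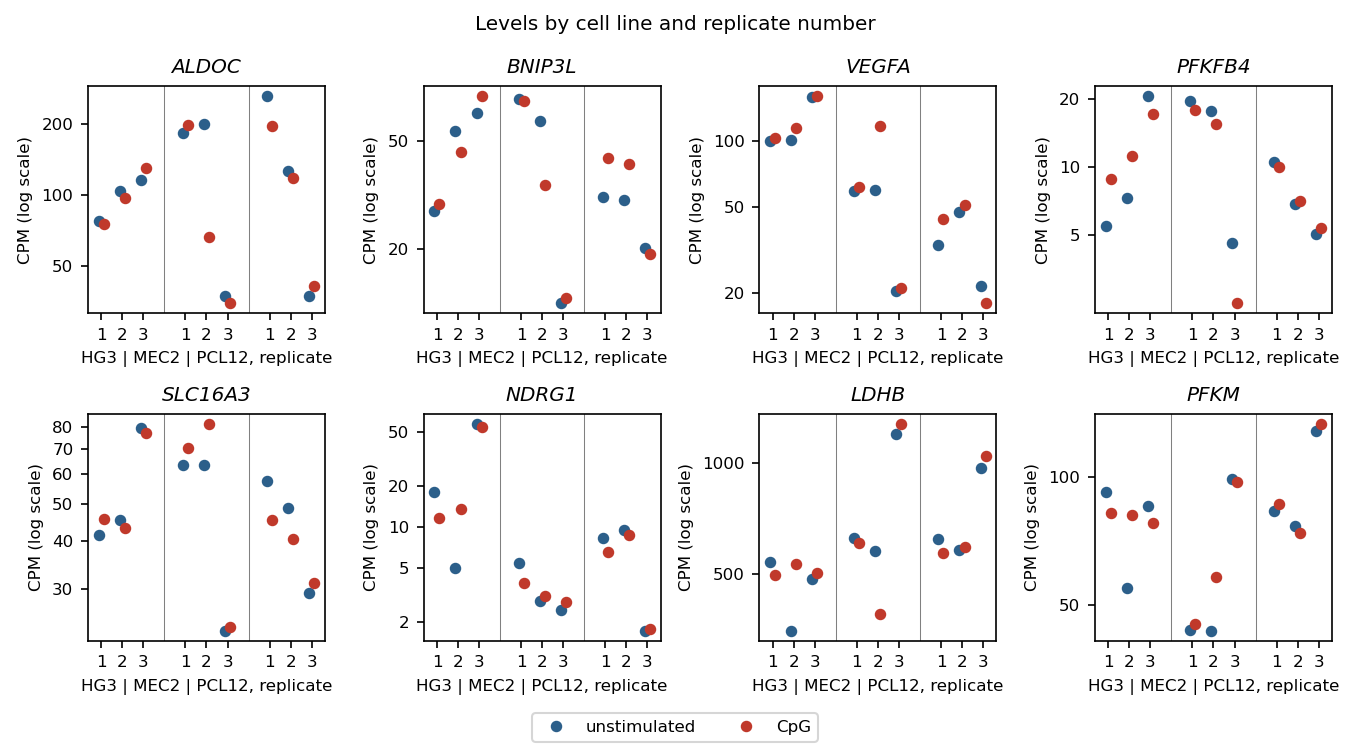
CPM (vertical axis, log scale) of 8 genes by cell line and replicate number (horizontal axis), with 1 point per library, blue for unstimulated and red for CpG-stimulated cells. ALDOC, BNIP3L, VEGFA, PFKFB4 and SLC16A3 are low and LDHB and PFKM high in replicate 3 of MEC2 in both treatments, and NDRG1 is high in replicate 3 of HG3.

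Other genes of the same pathways were read from lists of 9 further genes of the HIF system, 21 other HIF targets, 17 other isozymes of glycolysis (16 tested), 12 genes of pyruvate entry, 7 of the pentose phosphate pathway and 5 of glucose sensing. After CpG, 0 of them passed an adjusted p of 0.05 in any line. In unstimulated MEC2 against HG3, 1 gene of the HIF system, 2 other HIF targets and 1 isozyme were lower and 1 HIF target and 1 gene of glucose sensing higher, and 0 passed in pyruvate entry and the pentose phosphate pathway. These are 6 of 70 genes tested, a share near the 9.78% of all genes called in either direction. EPAS1, the second oxygen-regulated HIF subunit, was the gene of the HIF system. It stood at 73.2, 69.4 and 421.6 CPM in HG3, 12.7, 14.6 and 6.07 CPM in MEC2 and 12, 14.2 and 2.55 CPM in PCL12, lower in MEC2 (Log2FC -4.08, SE 0.96, adjusted p = 0.0156) and in PCL12 (Log2FC -4.30, SE 0.97, adjusted p = 0.0126). Replicate 3 of HG3 stood far above the others, and without it the Log2FC was -2.68 (adjusted p = 0.0587) in MEC2 and -2.90 (adjusted p = 0.0446) in PCL12. The MEC2 call was also lost without MEC2 unstimulated replicate 1 or 3 (adjusted p of 0.0615 and 0.0741). FAM162A, a mitochondrial HIF target, had 97.6 ± 62.0, 43.1 ± 3.32 and 46.98 ± 7.01 CPM (Log2FC -1.18 and -1.05, adjusted p of 0.0125 and 0.0273 in edgeR). Its unstimulated HG3 libraries stood, from the lowest, at 61.6, 62.1 and 169 CPM, and without the libraries rich in mitochondrial counts neither call held (Log2FC -0.52 and -0.40, adjusted p of 0.109 and 0.256). The call in PCL12 was also lost without PCL12 replicates 2 and 3 (adjusted p = 0.488). ENO3, the enolase of muscle, was lower in MEC2 (Log2FC -1.90, SE 0.40, adjusted p = 0.00187, and -1.36 with 0.00295 without the libraries rich in mitochondrial counts). The EPAS1 call was kept without those libraries in both lines (adjusted p of 0.0195 and 0.0156), and that in PCL12 was lost without PCL12 replicates 2 and 3 (adjusted p = 0.237).

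In PCL12 against HG3, 2 other HIF targets, 1 isozyme and 2 genes of glucose sensing were higher and 1 gene of the HIF system and 1 HIF target lower, 7 of 70 genes against 9.44% of all genes. STC2, a secreted glycoprotein, stood at 68.5 ± 18.8 CPM in PCL12 against 10.2 ± 2.85 CPM in HG3 and 5.16 ± 1.65 CPM in MEC2 (SD, n = 3 each), with a Log2FC of 2.76 (SE 0.34, adjusted p = 1.91e-06) against HG3. MEC2 against PCL12 gave 2 HIF targets lower, STC2 (Log2FC -3.73, SE 0.35, adjusted p = 1.87e-07) and P4HA2, a collagen prolyl hydroxylase (Log2FC -3.68, SE 0.75, adjusted p = 0.012). TXNIP, which restrains glucose uptake, had 49.04 ± 19.7 CPM in HG3 and 125 ± 67.5 CPM in PCL12 (Log2FC 1.35, SE 0.41, adjusted p = 0.0376), and PFKFB2, a regulator of phosphofructokinase, 7.52 ± 4.31 and 17.4 ± 1.94 CPM (Log2FC 1.21, SE 0.37, adjusted p = 0.0393). Without the libraries rich in mitochondrial counts the adjusted p was 0.242 for TXNIP and 0.106 for PFKFB2, and without PCL12 replicates 2 and 3 it was 0.00257 and 0.387. The calls of STC2 and P4HA2 were kept without the libraries rich in mitochondrial counts.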

How the data were processed

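RNA was measured in 18 libraries by single-read sequencing. The authors deposited raw gene counts, whole numbers per gene symbol without normalization. Per the submitters' processing notes, FastQC, MultiQC, Trimmomatic, STAR and featureCounts were used with build hg38. Their versions, the annotation and the treatment of duplicate and multiply mapped reads are not given in the sources used here, and the paper and the labels name different RNA kits. PCR copies counted as reads make counting precision look too good. Pseudogene rows existed for 15 members and held at most 6.31% of the counts of the parent gene.

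Groups came from the labels. The counts were scaled with TMM and fitted in edgeR 4.0.16 (R 4.3.3) with 6 group means, dispersions estimated robustly by quasi-likelihood and 12 residual degrees of freedom, and P values were adjusted by Benjamini-Hochberg over 31872 genes. Log2 CPM used a prior count of 2. Alternatives were DESeq2 1.42.0, limma-voom (limma 3.58.1), RLE scaling, other filters, a replicate block, single lines and left-out libraries. The fits were also run on simulated counts from independent libraries with large planted changes. That run does not cover small changes or libraries that stand apart, and nothing here rests on it. Positions are those of GENCODE v44 on GRCh38. Members and gene lists were chosen with earlier results of these data known. Named in full were members past the adjusted threshold between unstimulated lines (up to the 4 largest), members past P under 0.05 after CpG, the 2 highest and 2 lowest median pair ratios per line among members averaging 1 CPM or more, and isozyme groups, and of the other lists genes past the threshold with at least 10 CPM. Other members are given because all 35 are accounted for, and those described by replicate number or as nearest the threshold were chosen after their values were seen.

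The description of the series says that a replicate held 1 sample of each treatment, so numbers pair samples within a line. After removal of group means, same-numbered libraries correlated at 0.26, 0.21 and 0.48 (HG3), 0.19, -0.013 and 0.61 (MEC2) and 0.61, 0.49 and 0.515 (PCL12), over 13991 genes. In MEC2, CpG 1 with unstimulated 2 (0.45) and CpG 2 with unstimulated 1 (0.39) were above them, so pairs 1 and 2 of MEC2 rest on the description alone.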

Additional observations from a re-analysis of the deposited data

Results flagged for a closer look

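For 3 members, every replicate pair of 1 line moved the opposite way from every pair of another after CpG, and the test of the difference itself did not pass. Of the abundant genes, 2.82% had such a pattern between any 2 lines, and nothing particular to the members is read from the count. SLC2A1 was higher in 3 of 3 pairs of HG3 and lower in 3 of 3 of PCL12, with a difference of the CpG Log2FC, PCL12 minus HG3, of -0.46 (SE 0.39, adjusted p = 1 from edgeR). BNIP3 was lower in 3 of 3 pairs of HG3 and higher in 3 of 3 of PCL12, with a difference of 0.35 (SE 0.37, adjusted p = 1 from edgeR). DDIT4 was higher in 3 of 3 pairs of HG3 and lower in 3 of 3 of both other lines, with a difference of -0.39 (SE 0.46, adjusted p = 1 from edgeR) for MEC2 minus HG3 and of -0.52 (SE 0.46, adjusted p = 1 from edgeR) for PCL12 minus HG3. Pair 2 of HG3 and of MEC2 contains a library rich in mitochondrial counts, and its part was not tested.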

How the results depend on the processing

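With P under 0.05 after CpG, the counts of members in HG3, MEC2 and PCL12 (0, 0 and 1) became 3, 3 and 1 with the replicate block, 1, 3 and 2 with limma-voom and the block, and 1, 1 and 1 at a mean of at least 1 CPM with the block, the latter pair of settings chosen after seeing the data. Limma-voom gave 0 in PCL12, and fits of 1 line alone gave 1 in MEC2 and 0 in PCL12. Leaving out each library in turn gave 0 to 4 in HG3 (4 without HG3 unstimulated replicate 3), 0 to 1 in MEC2 (1 without MEC2 CpG replicate 3) and 0 to 1 in PCL12 (0 without replicate 1 of either treatment). For MEC2 against HG3, the 4 calls became 7 with DESeq2, 8 with no filter (22.4% and 19.3% of the genes with at least 10 CPM) and 2 to 5 with 1 library left out, 2 without HG3 unstimulated replicate 1 or any unstimulated MEC2 library. Without the mitochondria-rich libraries 4 members were called there and 3 for PCL12 against HG3 (17.04% and 16.75% of those genes). As SLC2A1 and SLC2A3 were lost in the former and HK1 and ANKRD37 in the latter, other members were gained in each. For PCL12 against HG3, the 4 became 1 without PCL12 replicates 2 and 3 (6.91% of those genes) and 2 to 5 with 1 library left out, 2 without HG3 unstimulated replicate 2 or PCL12 unstimulated replicate 3. For MEC2 against PCL12, the 0 became 3 with DESeq2 (7.71%), 1 with limma-voom, filterByExpr, no filter, at least 1 CPM or without the mitochondria-rich libraries (4.31% to 7.88%), and 0 to 2 with 1 library left out, 2 without HG3 unstimulated replicate 2. Members differing by replicate number (13, 10 and 6) numbered 8 in HG3 with limma-voom and 7 at a mean of at least 1 CPM (9.63% and 11.2%), 23 in PCL12 without the mitochondria-rich libraries (35.1%), and 4 to 19, 6 to 18 and 2 to 12 with 1 library left out. The cause of these shifts was not tested. 0 members passed an adjusted p in an interaction under any alternative run. With the block shared by lines, VEGFA in PCL12 against HG3 also passed, for 5 calls, and the other comparisons of unstimulated lines kept their counts of 4 and 0. Depth limits ADM and, outside HG3, EGLN3, whose counts were 0 to 38 and 0 to 23 per library.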
